A study of Homo sapiens with 4 samples.

Results

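Cholesterol in animal cells is held in range by a synthesis and uptake programme and by an efflux programme that act in opposite directions. In the first, the membrane-bound transcription factors SREBP-1 and SREBP-2 (encoded by SREBF1 and SREBF2) are carried by SCAP from the endoplasmic reticulum to the Golgi, cleaved there and sent to the nucleus, unless sterols make SCAP bind an INSIG protein and stay behind. In the second, oxysterols activate the nuclear receptors called LXRs, which raise genes such as ABCA1, the cholesterol exporter, and MYLIP, a ubiquitin ligase that removes lipoprotein receptors. The 8 genes examined here were listed by name for these roles, with earlier results of these data known. SREBF1, SREBF2, SCAP, INSIG1 and INSIG2 form the SREBP arm, and NR1H2 (LXR beta), ABCA1 and MYLIP form the LXR arm. All 8 were found, as 12 of the 44578 transcripts and 8 of the 23217 gene symbols in the deposited table.

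RNA came from LV-M100 cells 48 h after transfection with siRNAs. LV-M100 is a clonal subpopulation of the breast cancer line MDA-MB-231 that the study classed as lowly variable by cell size. The control and the depleted condition comprised 2 libraries each. The study used 2 siRNAs against SNRNP40 (siSNRNP40 #1 and #2) and 2 control siRNAs for sequencing. It names NC1 and the BLOCK-iT Fluorescent Oligo as its controls. The sample labels number the libraries without saying which siRNA each received. SNRNP40 is a component of the U5 particle of the spliceosome, and the comparison addresses which transcripts depend on it. Each of the 4 libraries was made from total RNA after removal of ribosomal RNA. There is 1 FPKM value (fragment count scaled for transcript length and for the number of mapped fragments) per transcript and condition. That value combines the 2 libraries of a condition and is called pooled here. The study states that it averaged independent siRNA replicates. No value below thus has a replicate error, and no test between conditions could be made from these FPKM values. Read counts are not given, so depth is unknown. All cells are 1 clone. In bulk RNA, fewer cells of a kind and less RNA per cell cannot be told apart.

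FPKM of SNRNP40 was 40.4 with control siRNA and 6.12 with SNRNP40 siRNA, which was 84.9% lower. Markers of a mesenchymal breast cancer line were high in both conditions (VIM was at an FPKM of 750.1 and 733.0, and AXL of 124.7 and 114.8), 5 of the 6 listed were above a mean FPKM of 1, and SPARC was near 0 (0.240 and 0.218). The 4 epithelial and hormone receptor genes PGR, ESRP1, GRHL2 and CLDN3 were each below an FPKM of 0.4. FPKM was summed over the transcripts of a gene, and the 12334 genes whose 2 values averaged 1 or more were kept. Fold changes are log2 values of SNRNP40 siRNA over control siRNA. Over the 12334 genes the median was 0.0034, the middle 50% lay between -0.17 and 0.17, and 5% lay below -0.50.

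Regulatory sequence known to tie these genes together is shown first, because the promoter of SREBF2 holds a site for the proteins it encodes and because ABCA1 and the SREBF genes are joined through a microRNA family. For all 8 genes RefSeq lists a promoter window, 9 windows in all, built on GRCh38.p14, and each was matched without a difference to 1 place in GRCh37, which has the coordinates of hg19. The 250 bases before the RefSeq start were searched on both strands for 4 motifs: the sterol regulatory element TCACNCCAC bound by SREBPs, the E-box CACGTG, the NF-Y box CCAAT, and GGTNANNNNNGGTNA, a relaxed form of the direct repeat with a 4-base spacer that LXR binds with its partner RXR. Of 35116 promoter windows of the same length, 0.883% held the sterol element, 6.34% the E-box, 32.0% the NF-Y box and 0.533% the relaxed repeat. Capitals mark the matches below.

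The SREBF2 window lies upstream of the gene on the plus strand at chr22:42228859-42229105. It has the sterol element 125 bases before the start, the only match among the 9 windows, and a CCAAT box on the minus strand 102 bases before it:
SREBF2: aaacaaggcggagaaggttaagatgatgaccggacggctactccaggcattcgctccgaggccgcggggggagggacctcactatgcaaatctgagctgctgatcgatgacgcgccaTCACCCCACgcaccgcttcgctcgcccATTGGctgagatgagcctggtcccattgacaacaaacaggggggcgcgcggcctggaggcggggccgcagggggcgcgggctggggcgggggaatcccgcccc

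The windows of INSIG1 and ABCA1 run 102 and 91 bases into the transcripts listed in the deposited table, so short stretches around their matches are given. INSIG1 had an E-box (chr7:155089521-155089550, plus strand) and a CCAAT box (chr7:155089406-155089434). ABCA1 had an E-box (chr9:107690566-107690595, minus strand) and the relaxed repeat, read here on the strand opposite to the motif (chr9:107690484-107690512):
INSIG1 E-box: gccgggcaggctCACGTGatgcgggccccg
INSIG1 CCAAT box: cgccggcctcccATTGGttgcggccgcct
ABCA1 E-box: gggccccggctcCACGTGctttctgctgag
ABCA1 repeat: caggcttTGACCGATAGTAACCtctgcgc

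The window of SCAP held 1 E-box, and that of MYLIP held 2 CCAAT boxes. The windows of SREBF1, INSIG2 and NR1H2 held none of the 4 motifs, which says only that these letters are not in the windows searched.

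Introns of SREBF2 and SREBF1 carry the genes of miR-33a and miR-33b, microRNAs known to act on ABCA1. Their mature 5' strands from RefSeq share the seed, bases 2 to 8, given in capitals:
hsa-miR-33a-5p: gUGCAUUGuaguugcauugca
hsa-miR-33b-5p: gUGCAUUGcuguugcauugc

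The 3' UTR of ABCA1 (3309 bases, in the last of 50 exons) has 4 stretches that pair with this seed, 3 of them within 22 bases at chr9:107546440-107546461 on the minus strand, where the first overlaps the second:
ABCA1 sites: CAATGCAATGCAattCAATGCA

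At least 3 such stretches were found in 29 of 19085 3' UTRs (0.152%), and at least 1 in 8.42%. Among the other members, SCAP had 1, and SREBF1, SREBF2, INSIG1, INSIG2, NR1H2 and MYLIP had 0. The hairpin of miR-33a was listed at 0 in both conditions and that of miR-33b at 0.310 with control siRNA and 0 with SNRNP40 siRNA. Such values from a library of long RNA do not measure mature microRNAs.

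Of the 8 genes, 7 had a lower FPKM with SNRNP40 siRNA than with control siRNA, where 49.5% of the 12334 genes were lower. The exception was SCAP. Because the members were chosen with earlier results known, their counts and medians are no separate evidence. No member passed an absolute log2 fold change of 1, which 1.47% of all genes passed. The study defined dependent transcripts by an absolute log fold change above 1, without giving the base. Its limit applied to transcripts, whereas the values here are sums per gene after the filter. On these sums ABCA1 alone passed 0.5 in size, on the lower side, where 10.3% of genes passed in either direction and 5.06% on the lower side. By its most expressed transcript alone, INSIG1 was at -0.59 and would pass too. The median log2 fold change was -0.40 over the 8 members. It was -0.42 over the 5 genes of the SREBP arm and -0.19 over the 3 of the LXR arm, and the difference of 0.23 between the arms rests on 3 genes that differ widely among themselves.

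**Figure D1:**
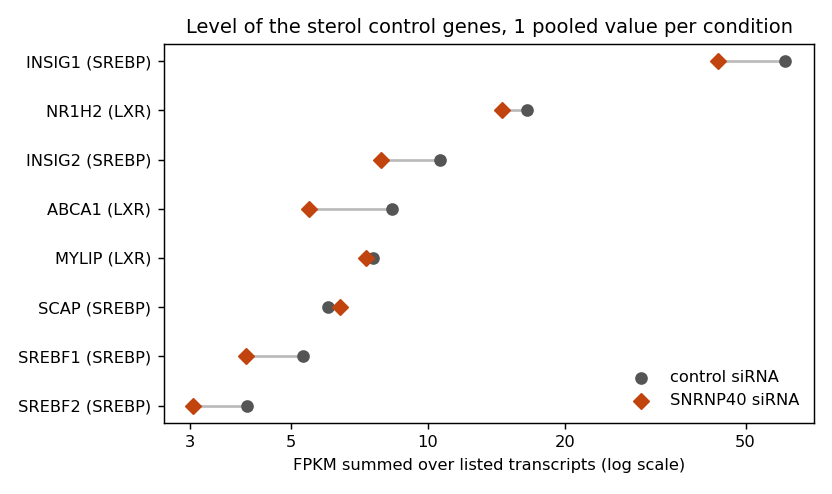
FPKM of each of the 8 genes on a log axis, summed over its transcripts, with control siRNA (circles) and SNRNP40 siRNA (diamonds); each symbol is 1 pooled value of 2 libraries, with no error. The diamond lies to the left of the circle for every gene except SCAP, and the longest line is that of ABCA1.

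SREBF1 and SREBF2, the transcription factors of the arm, were the least expressed members in both conditions. FPKM of SREBF1 was 5.30 with control siRNA and 3.97 with SNRNP40 siRNA (log2 fold change -0.42, 25.1% lower). FPKM of SREBF2 was 3.997 and 3.05 (log2 fold change -0.39, 23.8% lower). The ratio of SREBF1 to SREBF2 was 1.32 and 1.30, so the 2 genes kept nearly the same proportion. A log2 fold change at or below that of SREBF1 was seen in 7.20% of all genes, and at or below that of SREBF2 in 8.03%. Genes within 2-fold of their level gave similar shares, 8.14% and 10.4%.

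SREBF1 encodes SREBP-1a and SREBP-1c from alternative starts, and the table lists 2 transcripts without saying which is which. The more abundant had an FPKM of 3.86 and 2.79 (log2 fold change -0.47), and the other had 1.43 and 1.18 (-0.28). Both were lower, and the share of the first in the gene's total was 73.0% with control siRNA and 70.2% with SNRNP40 siRNA. The listed locus of SREBF1 (hg19 chromosome 17, 17584787 to 17740325) is longer than the annotated gene on the minus strand (17714648 to 17740300), and the table gives the same locus to RAI1, SMCR5 and the miR-33b gene. RAI1 was at 1.42 and 1.40 (-0.017). SREBF2 lies on the plus strand of chromosome 22 (42229106 to 42302375) with 1 listed transcript.

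SCAP, the escort that carries SREBPs out of the endoplasmic reticulum, was at an FPKM of 6.01 in the controls and 6.41 with SNRNP40 siRNA (log2 fold change 0.094). It was the only member with a higher value after depletion, and 35.5% of all genes were higher by at least as much. It lies on the minus strand of chromosome 3 (47455184 to 47517445). The summed FPKM of both SREBF genes was 1.55 times that of SCAP with control siRNA and 1.09 times with SNRNP40 siRNA.

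The INSIG proteins hold SCAP in the endoplasmic reticulum when sterols are plentiful, and INSIG1 is itself a well-known SREBP target. INSIG1 (chromosome 7, 155089486 to 155101945) was the most expressed member, with an FPKM of 61.0 and 43.5 (log2 fold change -0.49, 28.7% lower). It stood above 88.8% of all genes with control siRNA. At or below its fold change lay 5.30% of all genes and 2.80% of the 2466 genes within 2-fold of its level. INSIG2 (chromosome 2, 118846050 to 118867597), which is not driven by SREBP in the same way, had 10.6 and 7.90 (-0.43, 25.7% lower).

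The 2 INSIG genes were lower by nearly the same proportion, with a ratio of INSIG1 to INSIG2 of 5.75 with control siRNA and 5.51 with SNRNP40 siRNA. Their sum relative to SCAP was 11.9 and 8.02, a log2 difference of -0.57. These are ratios of RNA levels per length and say nothing of the proteins.

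INSIG1 has 3 listed transcripts at the same locus. The first had an FPKM of 28.4 and 18.9 (log2 fold change -0.59), the second 22.5 and 14.7 (-0.61), and the third 10.2 and 9.98 (-0.034). The lower level of the gene thus came from 2 of its 3 transcripts, and the share of the third was 16.7% with control siRNA and 22.9% with SNRNP40 siRNA. A shift of 6.18 percentage points was below the median of 7.35 over the 5282 genes with at least 2 transcripts, in which fragments are shared among overlapping transcripts by a model.

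**Figure D2:**
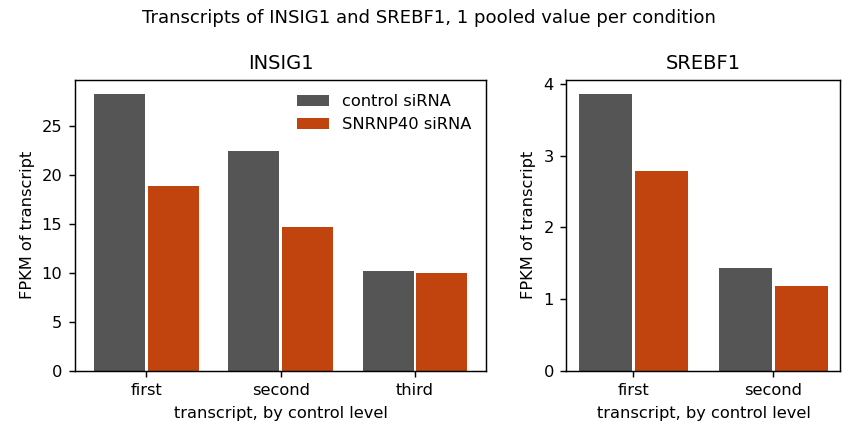
FPKM of the 3 transcripts of INSIG1 (left) and the 2 of SREBF1 (right), ordered by control level, with control siRNA (grey bars) and SNRNP40 siRNA (orange bars); each bar is 1 pooled value with no error, and the vertical axes differ. The third INSIG1 transcript stands at 10.2 and 9.98, whereas the other bars of a pair differ more.

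NR1H2 encodes LXR beta, the LXR found in most tissues, and was the second most expressed member. Its FPKM was 16.5 with control siRNA and 14.5 with SNRNP40 siRNA (log2 fold change -0.19), and 22.8% of all genes were at or below that change. Nearly all of its signal was in 1 of 2 listed transcripts on the plus strand of chromosome 19 (50879680 to 50886285), the other being listed at 0 and 0.0135.

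ABCA1, which moves cholesterol and phospholipid to acceptors outside the cell, had the lowest fold change of the 8. Its FPKM was 8.34 with control siRNA and 5.48 with SNRNP40 siRNA (log2 fold change -0.61, 34.3% lower). At or below that change lay 2.96% of all genes and 2.46% of the 4382 genes within 2-fold of its level. In order of level ABCA1 went from the fourth of the 8 members to the sixth, behind MYLIP and SCAP, though the spread that would separate such neighbours is unknown. It is listed as 1 transcript on the minus strand of chromosome 9 (107543284 to 107690527).

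MYLIP, the LXR-induced ligase that sends lipoprotein receptors to lysosomes, differed little, with an FPKM of 7.55 and 7.32 (log2 fold change -0.045). At or below it lay 42.2% of all genes. The ratio of ABCA1 to MYLIP, both LXR targets, was 1.10 with control siRNA and 0.748 with SNRNP40 siRNA. MYLIP lies on the plus strand of chromosome 6 (16129317 to 16148478).

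**Figure D3:**
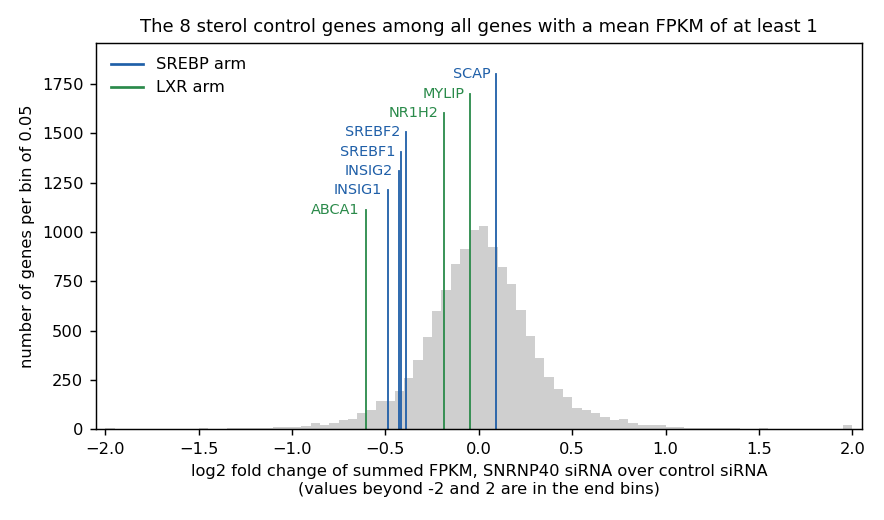
Number of genes by log2 fold change of summed FPKM, SNRNP40 siRNA over control siRNA, in bins of 0.05, for the 12334 genes with a mean FPKM of at least 1 (grey bars), with lines at the values of the SREBP arm (blue) and the LXR arm (green). Lines of SREBF1, SREBF2, INSIG1 and INSIG2 lie between -0.49 and -0.39, ABCA1 lies to their left at -0.61, and NR1H2, MYLIP and SCAP lie nearer to 0.

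Genes around the 8 members were described as lists by their role. Sterol synthesis enzymes, most of them classic SREBP-2 targets, were lower in 18 of 20 cases, where 49.5% of all genes were lower, with a median log2 fold change of -0.37, and 7 of the 20 were below -0.5 against 5.06% of all genes. The lowest were IDI1, an isomerase of the isoprenoid steps (FPKM 63.6 and 29.4, log2 fold change -1.11), MSMO1, a sterol methyl oxidase (36.9 and 20.2, -0.87), and HSD17B7 (10.5 and 6.37, -0.73). PMVK and TM7SF2 were higher (0.27 and 0.31). Any value below 0 counts as lower here, and some lay close to 0, such as NSDHL at -0.051. Fatty acid genes driven by SREBP-1 were lower in 13 of 13 cases, with a median of -0.38, and 6 of them were below -0.5. SCD, the stearoyl-CoA desaturase, was at 49.2 and 20.7 (-1.25) and FADS2 at 16.3 and 8.76 (-0.89), whereas ACLY, which makes cytosolic acetyl-CoA, was at 75.4 and 73.1 (-0.045). The medians of both enzyme lists lay close to that of the SREBP arm. The members and all lists were chosen with earlier results of these data known, among them the lower SCD. The counts and medians of the members and lists are therefore no separate evidence.

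Of 15 genes that process and degrade SREBPs and INSIGs, 6 were lower and 9 higher, near the 49.5% of all genes that were lower, and the median was 0.068. None of the 15 was past 0.5 in either direction, where 10.3% of all genes were. MBTPS2 and MBTPS1, the Golgi proteases that cleave SREBPs, were at -0.28 and -0.13. RNF139, a ubiquitin ligase of the endoplasmic reticulum, was at -0.22. UBE2G2, a ubiquitin-conjugating enzyme, was at 0.38, FBXW7, which marks nuclear SREBPs for degradation, at 0.25, and ERLIN1 at 0.22.

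For LXR partners, targets and efflux, 9 of 14 genes passed the expression filter, 2 were lower and 7 higher, and the median was 0.057. With 9 genes this count cannot be set apart from the 49.5% of all genes that were lower. NR1H3, which encodes LXR alpha, had an FPKM of 8.09 and 8.98 (log2 fold change 0.15), and RXRA had 5.73 and 5.97 (0.057). The LXR target LPCAT3 was at 0.11 and the transporter ABCA5 at 0.29. The other ABC transporters of the list (ABCG1, ABCG4, ABCA2, ABCA3 and ABCA7) were below a mean FPKM of 1. The log2 fold change of ABCA1, -0.61, was below those of all 9 expressed genes of this list, of which the lowest was NCOR1 at -0.13.

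Among 10 genes of lipoprotein uptake, 9 passed the filter, 6 were lower and 3 higher, and the median was -0.17. Over all genes 49.5% were lower, a share from which a count over 9 genes cannot be set apart. LIPA, the lysosomal lipase that frees cholesterol from lipoprotein esters, had an FPKM of 24.9 and 6.09 (log2 fold change -2.03), and was known to be low from earlier results. STARD4, a sterol carrier, was at -0.38, and SCARB1 and STARD3 were at 0.43 and 0.23. Storage, transport and oxysterol genes were split evenly, with 6 lower and 6 higher of 12 that passed among 15, as were all genes. NCEH1, a cholesteryl ester hydrolase, had 37.4 and 20.1 (-0.90) and OSBPL8, an oxysterol-binding protein, 58.0 and 39.5 (-0.55). CH25H, which makes the oxysterol 25-hydroxycholesterol, had 0.622 and 1.60 (1.36), with a control level below 1.

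**Figure D4:**
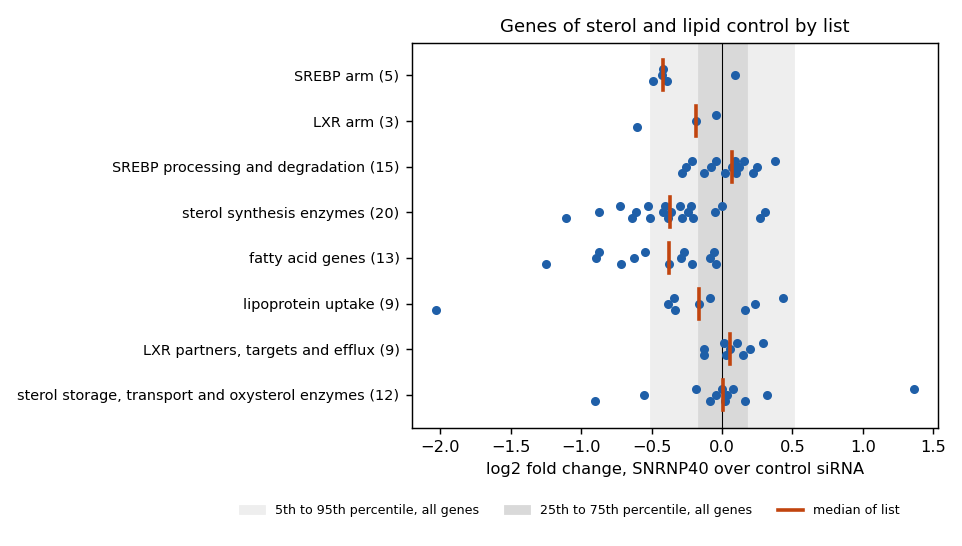
Log2 fold change of summed FPKM, SNRNP40 siRNA over control siRNA, for each expressed gene (points) of the 2 arms and the 6 lists, with the number of genes in brackets, the median of each list (orange line) and bands from the 5th to the 95th (light grey) and the 25th to the 75th (darker grey) percentile of all genes. Medians of the SREBP arm, the sterol synthesis enzymes and the fatty acid genes are -0.42, -0.37 and -0.38, left of the band that holds the middle 50% of genes, and those of the processing genes and of the LXR partners are 0.068 and 0.057.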

How the data were processed

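Reads were trimmed (cutadapt 1.2.1), aligned to hg19 (TopHat 2.0.8) and assembled and quantified (Cufflinks, cuffmerge, cuffdiff 2.0.2) by the authors. Deposited values are in FPKM, 1 per transcript and condition, scaled by the authors for transcript length and mapped fragments. Each combines the libraries of a condition, and the authors state that replicates were averaged. The table also holds the authors' fold changes, test statistics, p-values and q-values, which were not used. Whether counting used the strand is not given in the sources used here.

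FPKM was summed over the transcripts of a gene symbol, genes averaging 1 FPKM or more, with both conditions above 0, were kept, and log2 ratios were taken without a pseudocount. Members and lists were chosen with earlier results of these data known. All 8 members, SNRNP40, markers, and up to 3 of the highest and 3 of the lowest genes of each list are named. Some others are examples chosen after their values were seen (MBTPS1, RXRA, LPCAT3, NSDHL). Values of 2 list genes that the rule would name are not reported here. Of the list genes, 2 were found under older symbols (SC5D, SPRING1). Motifs and seed matches were counted in RefSeq promoters (GRCh38.p14) and in canonical GENCODE release 44 transcripts on GRCh37. Calculations used Python 3.11.15, numpy 2.4.6 and pandas 2.3.3, and the summing and calling steps were tested on simulated data.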

Additional observations from a re-analysis of the deposited data

How the results depend on the processing

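No paired analysis was possible because each value pools the libraries of a condition and carries no replicate number; leaving out a replicate was not possible for the same reason. Without read counts, no limit set by depth can be given.

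The counts of members, the medians of the arms and their difference were recomputed from the most expressed transcript of a gene, with a pseudocount of 1, with centring on the median of all genes, with upper-quartile scaling, with the filter raised to 5 FPKM and with no filter. Pathway lists, ratios, order of levels and shares of all genes were not recomputed. The number of members past the fold limit, 0, became 1 (ABCA1) with a limit of 0.5 on sums per gene. It stayed at 0 with a natural logarithm. A limit of 1 in natural logarithms is stricter than 1 in log2, so the count could not rise there. All 8 members pass the filter, so removing it could not change their values either. The number of lower members and the medians of the arms moved by less than 1.5 times or 0.1 on the log2 scale, the limits used to call a change in a value without a test. A minimum mean FPKM of 5 leaves out SREBF1 and SREBF2. Centring and scaling shift all genes by only 0.0034 and -0.031, so they bear little on stability. Of 32 values for single members under 4 alternatives, 31 moved by less than 0.1, 0 changed sign, and INSIG1 went from -0.49 to -0.59 with its most expressed transcript alone. SREBF2, SCAP, INSIG2, ABCA1 and MYLIP have 1 listed transcript each, so that alternative could not move them. Many of the 32 values were thus nearly fixed, and their count is no measure of stability.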
